A study of Neurospora crassa with 6 samples.

Results

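The cell wall of the filamentous fungus Neurospora crassa is built from chitin, beta-glucan, a smaller amount of alpha-1,3-glucan and glycoproteins. The genes described here encode the enzymes that polymerise its polysaccharides: 7 chitin synthases (chs-1 to chs-7), the beta-1,3-glucan synthase fks and the alpha-1,3-glucan synthases ags-1 and ags-2. They were taken as a fixed set of locus tags, 10 of the 9730 genes in the deposited table, and all 10 were present. Of these, 6 carry a symbol in the RefSeq gene table of assembly NC12 (fks is listed there as do, with fks as a synonym), and the names chs-2, chs-7, ags-1 and ags-2 belong to the definition of the set.

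Polyadenylated RNA was sequenced from 6 shaken liquid cultures, 3 of the control strain 328-4 and 3 of strain 1810, which is mutated in the clock gene prd-2 (period-2). Both strains carry the ras-1bd (band) allele, which makes the daily rhythm of spore formation visible, and both are MAT A. In the mutant, prd-2 is interrupted by the barR resistance marker (prd-2::barR). Every culture was started from a mycelial disc and kept in Bird medium (1.8% glucose) under constant light at 25 °C for 48 h. Each genotype is a single strain, so the replicate spread is that between cultures. Any other difference between these strains and the loss of prd-2 cannot be told apart. The question asked of the synthase genes was whether, and in which direction, their transcripts differed between the strains.

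Chitin is made at the plasma membrane by chitin synthases, which are sorted into classes by sequence. In N. crassa chs-3 is of class I, chs-2 of class II, chs-1 of class III, chs-4 of class IV, chs-5 of class V, chs-6 of class VI and chs-7 of class VII. The class V and class VII enzymes carry a region like the motor of myosin in front of the synthase. Chitin synthases reach the hyphal tip in small vesicles that gather in the Spitzenkörper, the vesicle supply centre of the growing tip, and they also act at septa. The product of fks is the membrane-bound catalytic subunit of beta-1,3-glucan synthase, the target of the echinocandin drugs. In N. crassa the alpha-1,3-glucan synthase AGS-1 is known for its role in the formation of asexual spores.

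Values are FPKM (fragments per kilobase of gene model, adjusted for sequencing depth), so that levels can be compared between genes per length. The summed FPKM of a culture lay between 657467 and 688885, and the number of fragments behind it is unknown. Across the 7797 genes tested, the Pearson correlation of log2(FPKM + 1) was 0.989 to 0.996 between cultures of a strain and 0.938 to 0.961 between strains, a description across genes that are not independent. The mutated gene prd-2 (NCU01019) measured 26.2 ± 1.31 FPKM in the control cultures and 6.78 ± 0.784 FPKM in the mutant cultures (SD, n = 3 each), with an annotated span that overlaps NCU01021; the assignment of prd-2 to this locus comes from knowledge of the study. Mutant and control were compared on log2(FPKM + 1) with limma, and a gene was called at a Benjamini-Hochberg adjusted p under 0.05 over all tested genes. Fold changes are on that scale, on which the change of a gene with a low level is understated.

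Of the 10 synthase genes, 4 were called: chs-5 and chs-7 were higher in the mutant, and chs-1 and chs-2 were lower. In the deposited values, the summed level of the 7 chitin synthase transcripts differed between the strains by less than the spread between cultures, while the make-up of that sum shifted. The genes chs-3, chs-4, fks, ags-1 and ags-2 were tested and not called, and chs-6 lay under the filter of a mean of 1 FPKM. The 4 calls are 44.4% of the 9 genes tested, beside 47.8% of all 7797 tested genes, so the number of calls is near the background of these strains. Of all tested genes, 24.0% were called higher and 23.8% lower.

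**Figure D1:**
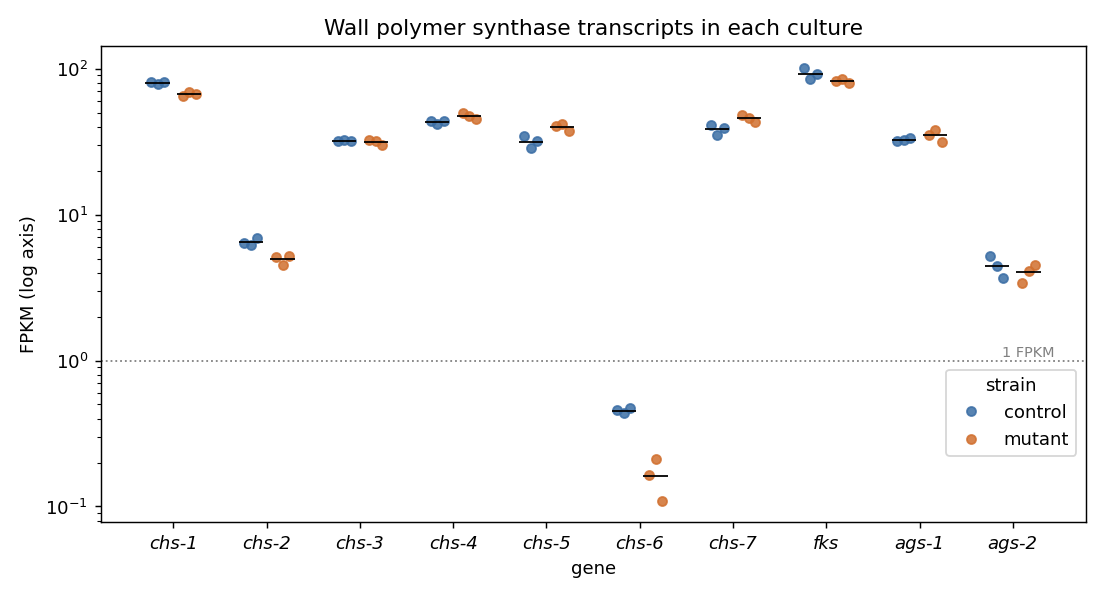
FPKM (log axis) of each synthase gene in the 3 control and 3 mutant cultures, with a bar at the mean of each strain. The levels run from 0.110 FPKM for chs-6 in a mutant culture to 102 FPKM for fks in a control culture, and the dotted line marks the filter at 1 FPKM.

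In the controls, fks had the highest level of the set with 92.7 ± 8.61 FPKM, followed by chs-1 with 80.0 ± 1.74 FPKM (SD, n = 3 each). The next were chs-4 with 43.1 ± 1.25 FPKM and chs-7 with 38.4 ± 2.88 FPKM. The control values of ags-1 (32.6 ± 0.942 FPKM), chs-3 (32.0 ± 0.371 FPKM) and chs-5 (31.7 ± 2.79 FPKM) overlapped, and no order among these can be given. At the low end, chs-2 measured 6.48 ± 0.377 FPKM, ags-2 4.45 ± 0.740 FPKM and chs-6 0.455 ± 0.0183 FPKM. By mean FPKM over all 6 cultures, fks ranked 1260 and chs-1 ranked 1524 of the 9730 genes, ags-2 ranked 6885 and chs-6 ranked 8242.

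The order in the mutants began with the same genes, fks at 82.6 ± 2.65 FPKM and chs-1 at 67.2 ± 2.03 FPKM (SD, n = 3 each). The mutant values of chs-4 and chs-7 overlapped, as did those of chs-5 and ags-1, of ags-1 and chs-3, and of chs-2 and ags-2. Within each of the 6 cultures chs-4 lay above chs-7, and chs-2 above ags-2. None of the 10 genes overlaps another annotated gene in the NC12 table. The within-strain SD of the 9 tested genes on the log2 scale ran from 0.036 (chs-3) to 0.18 (ags-2), around the median of 0.094 over all tested genes.

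The class III gene chs-1 (NCU03611) had the highest level of the chitin synthase genes. It measured 81.4, 78.0 and 80.5 FPKM in control replicates 1 to 3, and 65.0, 69.0 and 67.6 FPKM in the mutant cultures, in the order of the replicate numbers here and below. All 3 mutant values lay below the lowest control value, and the mean of the mutants was 84.0% of that of the controls. This is a log2 change of -0.25 (SE 0.049, adjusted p = 0.00531, limma).

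The class II gene chs-2 (NCU05239), a transcript of low level, measured 6.38, 6.16 and 6.89 FPKM in the control cultures and 5.11, 4.52 and 5.20 FPKM in the mutant cultures. The groups did not overlap, and the mean of the mutants was 76.3% of that of the controls. Its log2 fold change of -0.33 (SE 0.079, adjusted p = 0.0113, limma) was the largest in size among the called synthase genes, by a margin far within its error, and 66.0% of all tested genes had a smaller one. With quantile normalization chs-2 was no longer called, at -0.15 (adjusted p = 0.149, limma).

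The class I gene chs-3 (NCU04251) was nearly level in all cultures, with 31.8, 32.4 and 31.7 FPKM in the control cultures and 32.3, 31.8 and 30.2 FPKM in the mutant cultures. The values of the strains overlapped. The log2 fold change of -0.02 had a 95% interval from -0.14 to 0.09 (adjusted p = 0.713, limma).

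The class V gene chs-5 (NCU04352), the first of the pair with a myosin-like region, measured 34.4, 28.8 and 32.0 FPKM in the control cultures and 40.8, 41.9 and 37.6 FPKM in the mutant cultures. Every mutant culture lay above every control culture, and the mean of the mutants was 127% of that of the controls. In log2 units chs-5 was higher by 0.33 (SE 0.077, adjusted p = 0.0103, limma).

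The class VII gene chs-7 (NCU04350), the second of that pair, measured 41.0, 35.3 and 39.0 FPKM in the control cultures and 47.9, 46.0 and 43.2 FPKM in the mutant cultures. The groups did not overlap, and the mean of the mutants was 119% of that of the controls. The estimate for chs-7 was a log2 change of 0.25 (SE 0.071, adjusted p = 0.0243, limma). This call was lost with quantile normalization (adjusted p = 0.0516) and in the fits without control replicate 2 (0.0804), control replicate 3 (0.0513), mutant replicate 1 (0.0788) or mutant replicate 2 (0.0677), with adjusted p-values from limma.

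In the NC12 annotation chs-5 and chs-7 are near neighbours, with 1 annotated gene, NCU04351, between them. NCU04351 was listed at 0 in all 6 cultures. For both synthase genes the lowest control culture was replicate 2 and the lowest mutant culture was replicate 3. The same held for chs-4, chs-6 and fks, so this was not particular to the pair. The log2 ratio of chs-5 to chs-7 within a culture was -0.25, -0.29 and -0.29 in the controls and -0.23, -0.14 and -0.20 in the mutants. The ratio was higher in every mutant culture, by 0.09 log2 units on average, with an exact two-sided permutation p of 0.1, the smallest that 3 against 3 cultures allow (0.3 after adjustment over 3 ratios).

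The class IV gene chs-4 (NCU09324) measured 43.8, 41.6 and 43.7 FPKM in the control cultures and 49.5, 47.4 and 45.3 FPKM in the mutant cultures. The values did not overlap, but the log2 fold change of 0.14 (SE 0.054, 95% interval 0.01 to 0.26) did not pass the threshold (adjusted p = 0.0773, limma). Of all tested genes, 59.8% had values that did not overlap between the strains, and of the 9 tested synthase genes 5 did (55.6%).

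The class VI gene chs-6 (NCU05268) had by far the lowest level, and its mean over the 6 cultures was under 1 FPKM, so it was not among the tested genes. It measured 0.460, 0.434 and 0.469 FPKM in the control cultures and 0.164, 0.212 and 0.110 FPKM in the mutant cultures. The groups did not overlap, and the mean of the mutants was 35.6% of that of the controls, the lowest share in the set. With no filter on low values, its log2(FPKM + 1) change was -0.33 (SE 0.064, adjusted p = 0.00662, limma), in a fit of 9047 genes that called 42.2% of them in either direction and 21.7% lower. The number of fragments behind such values is not given, and their precision rests on the spread between cultures.

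**Figure D2:**
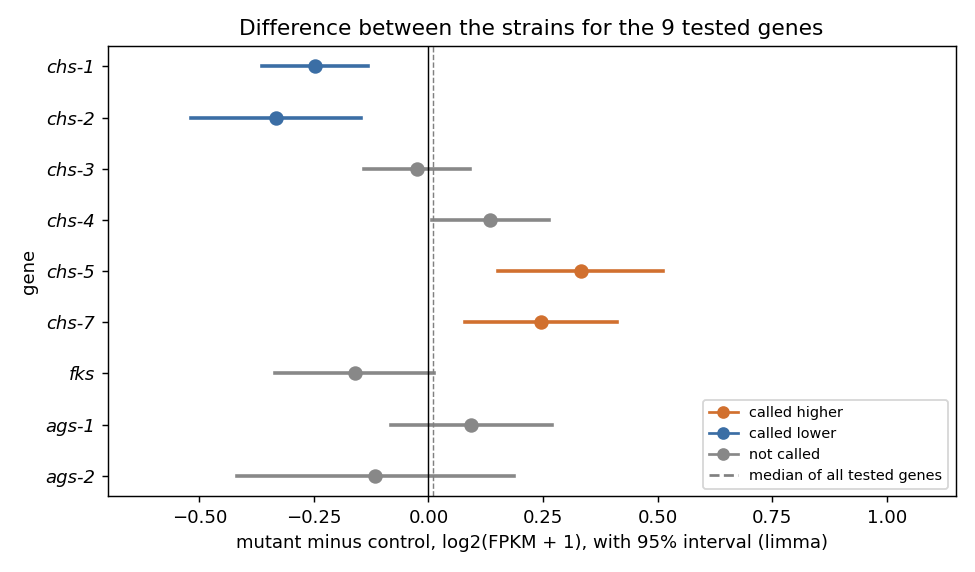
Mutant minus control difference in log2(FPKM + 1) for the 9 tested synthase genes, with limma's 95% interval; colour marks genes called higher, called lower or not called, and the dashed line the median of all tested genes (0.01). The intervals of chs-1 and chs-2 lie below 0 and those of chs-5 and chs-7 above it.

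Summed, the 7 chitin synthase transcripts measured 239, 223 and 234 FPKM in the control cultures and 241, 241 and 229 FPKM in the mutant cultures. The strains overlapped, and the mean was 232 ± 8.44 FPKM in the control cultures and 237 ± 6.63 FPKM in the mutant cultures (SD, n = 3 each). The difference of 4.89 FPKM was smaller than either SD, but depended on the scaling and on single cultures. It became -0.551 FPKM when every culture was rescaled to the same total, -0.506 FPKM with quantile normalization and 7.27 FPKM with median centring. Without control replicate 2 it was 0.223 FPKM, without mutant replicate 2 it was 2.94 FPKM and without mutant replicate 1 it was 3.01 FPKM. Without control replicate 1 it was 8.44 FPKM and without mutant replicate 3 it was 8.72 FPKM. No p is given for this sum, since it is a score over chosen genes.

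Within that sum, chs-1 held 34.5 ± 0.510% in the controls and 28.4 ± 1.26% in the mutants (SD, n = 3 each). The share of chs-5 was 13.6 ± 0.720% in the controls and 16.9 ± 0.491% in the mutants, and that of chs-7 was 16.5 ± 0.647% and 19.3 ± 0.531%. The share of chs-4 was 18.3%, 18.7% and 18.7% in the controls and 20.6%, 19.7% and 19.8% in the mutants. That of chs-3 was 13.8 ± 0.665% and 13.3 ± 0.127%. The share of chs-2 was 2.79 ± 0.139% and 2.09 ± 0.198%, and that of chs-6 was 0.196 ± 0.00407% and 0.0680 ± 0.0201%. Only the shares of chs-3 overlapped between the strains, and those of the other chs genes did not. Of all tested genes, 59.8% had FPKM values that did not overlap. Such shares do not depend on how the libraries were scaled to each other, but the share of a gene falls when that of another rises.

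**Figure D3:**
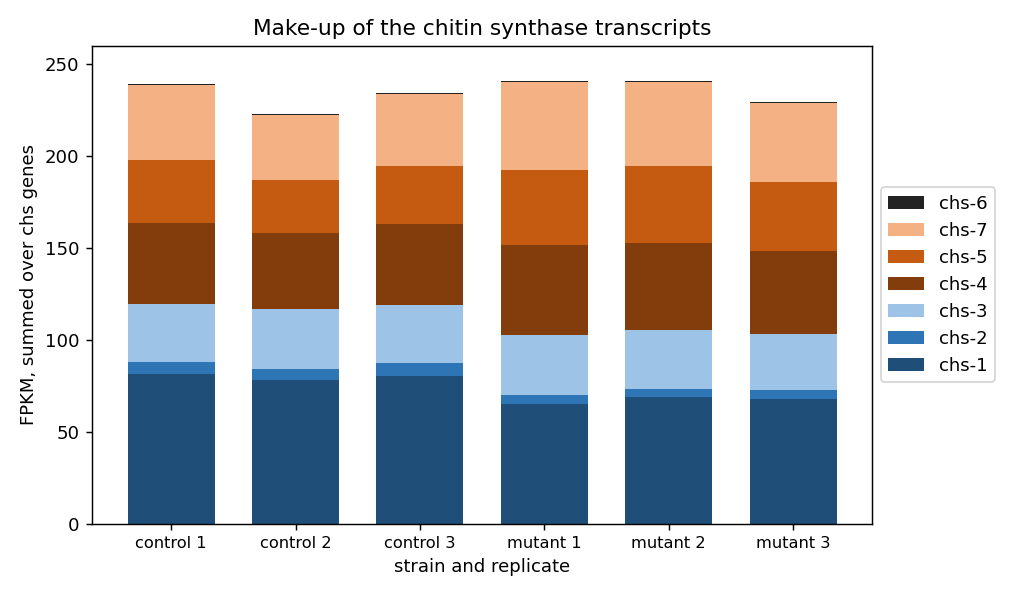
FPKM of the 7 chitin synthase genes stacked for each culture, classes I to III in blue below and classes IV, V and VII in brown above, with chs-6 at the top. The totals lie between 223 and 241 FPKM in all 6 cultures, while the blue part is smaller in the mutants.

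The chitin synthases of classes I to III are commonly grouped together, apart from those of classes IV, V and VII. Splitting the sum this way was chosen after the values were seen, and it is given as a description. The class I to III transcripts (chs-1, chs-2 and chs-3) summed to 120, 117 and 119 FPKM in the control cultures and 102, 105 and 103 FPKM in the mutant cultures. The class IV, V and VII transcripts (chs-4, chs-5 and chs-7) summed to 119, 106 and 115 FPKM in the control cultures and 138, 135 and 126 FPKM in the mutant cultures. Neither pair of groups overlapped, and the first sum was lower and the second higher in every mutant culture. The ratio of the first sum to the second was 1.003, 1.10 and 1.04 in the controls and 0.741, 0.778 and 0.816 in the mutants. The mean difference in that ratio was -0.270, and it stayed between -0.292 and -0.243 when any 1 culture was left out. Since the split followed the values, this range shows only the dependence on single cultures and does not test the split. The lower class I to III sum was mostly that of chs-1. Mutant minus control was -12.8 FPKM for chs-1, -1.54 for chs-2 and -0.540 for chs-3. For chs-4, chs-5 and chs-7 it was 4.34, 8.40 and 7.29 FPKM.

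The beta-1,3-glucan synthase gene fks (NCU06871) measured 102, 84.7 and 91.6 FPKM in the control cultures and 82.4, 85.4 and 80.1 FPKM in the mutant cultures. Control replicate 2 lay inside the range of the mutants, so the groups overlapped. The log2 fold change of -0.16 had a 95% interval from -0.34 to 0.01 and was not called (adjusted p = 0.112, limma). With quantile normalization fks was called lower, at -0.25 (adjusted p = 0.0355, limma). Leaving out 1 culture gave -0.09 without control replicate 1 and -0.22 without control replicate 2, and neither was called.

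The ratio of fks to the chitin synthase sum was 0.426, 0.380 and 0.391 in the controls and 0.342, 0.355 and 0.349 in the mutants. It was lower in every mutant culture, with means of 0.399 ± 0.0238 and 0.349 ± 0.00613 (SD, n = 3 each), and this ratio was formed after the values were seen. The log2 ratio of fks to chs-1, the gene with the next lower level, was 0.21 ± 0.10 in the controls and 0.30 ± 0.049 in the mutants. These values overlapped (exact two-sided permutation p = 0.3, adjusted over the 3 ratios 0.4).

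**Figure D4:**
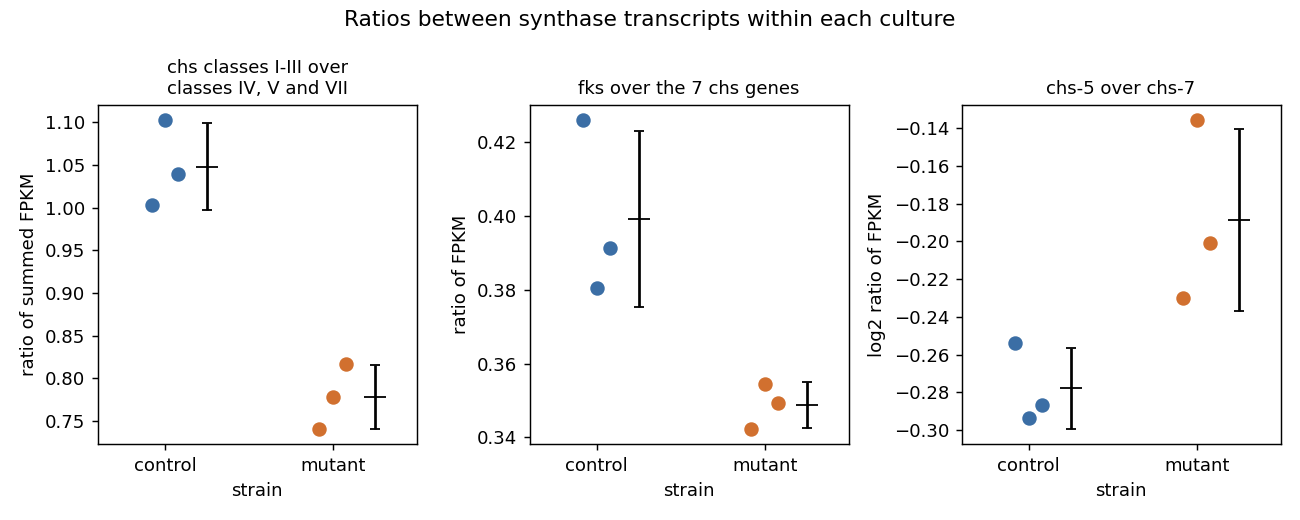
Ratios formed within each culture: summed FPKM of chs classes I to III over classes IV, V and VII, FPKM of fks over the sum of the 7 chs genes, and the log2 ratio of chs-5 to chs-7. Points are cultures and bars the mean ± SD of a strain (axes do not start at 0); the first and second ratios were formed after the values were seen, and the ratios of ags-1 to ags-2 and of fks to chs-1, which overlapped between the strains, are not drawn. The strains do not overlap in these panels, with class ratios of at least 1.003 in the controls and at most 0.816 in the mutants.

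The alpha-1,3-glucan synthase gene ags-1 (NCU08132) measured 31.9, 32.2 and 33.6 FPKM in the control cultures and 35.3, 38.0 and 31.4 FPKM in the mutant cultures. Mutant replicate 3 lay below all controls, and the other mutant cultures lay above them. Its log2 change was 0.09, with a 95% interval from -0.08 to 0.27 (adjusted p = 0.338, limma). It was 0.032 without mutant replicate 2 and 0.17 without mutant replicate 3, and neither was called. A gene next to ags-1 in the annotation is gh13-1 (NCU08131), named for glycoside hydrolase family 13, the family of the alpha-amylases. It was looked at for its position, and the neighbour on the other side of ags-1 was not looked at. It measured 286, 299 and 334 FPKM in the control cultures and 618, 623 and 520 FPKM in the mutant cultures. For gh13-1 the log2 change was 0.93 (SE 0.093, adjusted p = 0.000246, limma), and mutant replicate 3 was the lowest mutant culture. That culture was also the lowest mutant for ags-1, chs-3, chs-4, chs-5, chs-6, chs-7 and fks, but not for chs-1, chs-2 and ags-2.

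The second alpha-1,3-glucan synthase gene, ags-2 (NCU02478), measured 5.18, 4.45 and 3.70 FPKM in the control cultures and 3.42, 4.10 and 4.52 FPKM in the mutant cultures. The groups overlapped, and ags-2 had the widest within-strain spread of the tested synthase genes. The log2 fold change of -0.12 had a 95% interval from -0.42 to 0.19 (adjusted p = 0.490, limma), and its sign turned with quantile normalization (0.10). It was -0.020 without control replicate 1 and -0.22 without control replicate 3, and neither was called. The log2 ratio of ags-1 to ags-2 was 2.89 ± 0.28 in the controls and 3.13 ± 0.30 in the mutants (SD, n = 3 each), which overlapped (exact two-sided permutation p = 0.4, also 0.4 after adjustment over the 3 ratios).

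The synthase genes were set beside other genes of wall synthesis, 45 genes in 6 lists. Of these, 40 were tested and 22 were called, 10 higher and 12 lower in the mutant, which is 55% of those tested beside 47.8% of all tested genes. The median log2 fold change was 0.02 over the 40 genes and 0.01 over all tested genes. The list of precursor enzymes came to 1 gene, gfa1 (NCU07366), named for the glutamine:fructose-6-phosphate amidotransferase that opens the pathway to UDP-N-acetylglucosamine, the substrate of the chitin synthases. Its level was 276 ± 8.49 FPKM in the control cultures and 362 ± 10.9 FPKM in the mutant cultures (SD, n = 3 each). Its log2 change was 0.39 (SE 0.053, adjusted p = 0.000994, limma), and its span overlaps that of NCU07365, so its value is uncertain.

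Of the 5 genes listed as regulators of the synthases, 1 was called higher and none lower. This is 20% of those tested, beside 47.8% called and 24.0% called higher of all tested genes. The called gene was the locus NCU05720. It was put in the list without an annotation in the table, so its membership is not supported by the sources used here. It had a log2 change of 0.34 (SE 0.063, adjusted p = 0.00388, limma).

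Among the regulators not called, rgf1 (NCU00668), named as a guanine nucleotide exchange factor, had an estimate of 0.14 (adjusted p = 0.0540, limma). The gene lrg-1 (NCU02689) is listed under the symbol amyc and had an estimate of 0.17 (adjusted p = 0.0561, limma). Values of both genes did not overlap between the strains, and both passed the threshold when the libraries were median-centred (adjusted p of 0.0401 for rgf1 and 0.0400 for lrg-1, limma), which brought the calls in the list to 3. The list had 2 calls with quantile normalization, with a minimum mean of 5 FPKM and without control replicate 1. Over all tested genes, median centring called 3763 of 7797 and quantile normalization 3796 of 7797. The minimum of 5 FPKM called 3297 of 6708, and the fit without control replicate 1 called 3465 of 7773. The gene pkc (NCU06544), a protein kinase C gene whose span overlaps that of NCU06546, had an estimate of 0.03, and gs-1 (NCU04189), known from mutants deficient in beta-1,3-glucan synthase activity and listed as cot-2, one of 0.05.

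**Figure D5:**
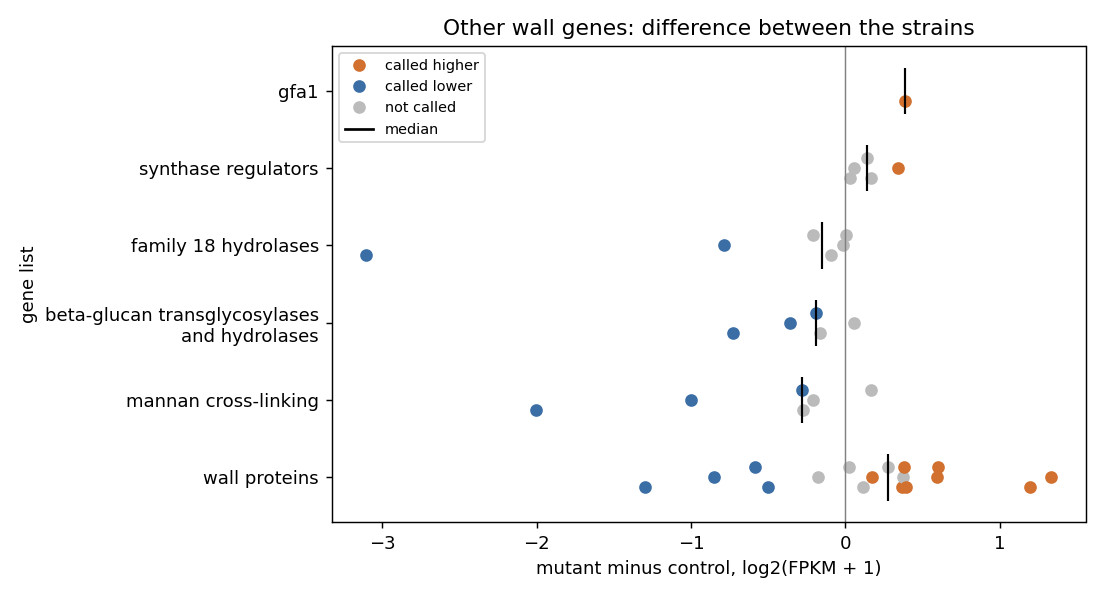
Mutant minus control difference in log2(FPKM + 1) for the 40 tested genes of the other wall lists, 1 point a gene, coloured by call, with a bar at the median of each list. The wall proteins lie on both sides of 0, and the called points of the hydrolase, transglycosylase and mannan lists lie below it.

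Of the 9 genes of glycoside hydrolase family 18, the family of chitinases, 6 were tested, 2 were called lower and none higher. This is 33.3% of those tested, beside 47.8% called and 23.8% called lower of all tested genes. The gene gh18-9 (NCU07035) measured 276, 232 and 206 FPKM in the control cultures and 22.7, 22.0 and 37.3 FPKM in the mutant cultures, a log2 fold change of -3.11 (SE 0.20, adjusted p = 4.19e-05, limma). Its span overlaps that of NCU15200, so its value is uncertain. The gene gh18-6 was lower by a log2 fold change of -0.78 (SE 0.11, adjusted p = 0.00124, limma). The other 4 tested genes had estimates between -0.21 and 0.01.

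Of the 5 tested genes for beta-glucan transglycosylases and hydrolases, 3 were called lower and none higher. This is 60% of those tested, beside 47.8% called and 23.8% called lower of all tested genes. The 3 called genes were gh16-1 at -0.73 (adjusted p = 0.0329, limma), gel-5 at -0.36 (0.0441) and gel-1 at -0.19 (0.0403). Like gel-5, gel-1 encodes a GEL-type beta-1,3-glucanosyltransferase. None of the 3 calls remained with the replicate block or in the fits without control replicate 1, control replicate 2, mutant replicate 1 or mutant replicate 3. The gene gel-3, the most abundant of this list, measured 817 ± 98.9 FPKM in the control cultures and 847 ± 69.6 FPKM in the mutant cultures (SD, n = 3 each) and was not called.

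Of the 6 tested family 76 genes, whose products are known for linking glycoproteins into the wall through their mannan, 3 were called lower and none higher, which is 50% of those tested beside 47.8% called and 23.8% called lower of all tested genes. On the TPM scale 5 of this list were called, beside 3542 of all 7797 tested genes, 1987 of them lower. The gene gh76-3 (NCU08127, synonym dcw1) measured 59.4, 56.0 and 55.2 FPKM in the control cultures and 29.7, 28.0 and 26.1 FPKM in the mutant cultures, a log2 fold change of -1.002 (SE 0.063, adjusted p = 3.66e-05, limma). The gene gh76-5 was lower at -2.002 (SE 0.10, adjusted p = 1.7e-05, limma). Its relative gh76-7 (synonym dfg5) had an estimate of 0.17 and was not called (adjusted p = 0.0738, limma).

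All 17 genes for anchored and non-anchored wall proteins (acw and ncw) were tested, and 8 were called higher and 4 lower. This is 70.6% of those tested, beside 47.8% called, 24.0% called higher and 23.8% called lower of all tested genes. Near the threshold lay acw-3 (adjusted p = 0.0499, limma), whose values overlapped, and acw-4 (0.0484), whose span overlaps that of NCU09264. The list had 9 calls without control replicate 2 (2892 of 7778 genes called) and 13 without control replicate 1 (3465 of 7773). The largest called rises were those of acw-9, from 1071 ± 169 to 2684 ± 161 FPKM, and of ncw-6, from 35.3 ± 0.751 to 82.6 ± 6.47 FPKM (SD, n = 3 each). The log2 fold change of acw-9 was 1.33 (adjusted p = 0.000131, limma), and the adjusted p of ncw-6 was 2.37e-05. The largest called falls were those of ncw-1 at -1.30 (adjusted p = 0.00181, limma) and acw-8 at -0.85 (0.00226). The span of ncw-1 overlaps that of NCU05138, so its value is uncertain.

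The genes whose pattern was most like that of chs-2, the called synthase gene with the largest log2 change, were found by the Euclidean distance of log2(FPKM + 1) over the 6 cultures, each gene centred on its own mean. The 3 nearest of 7796 genes were NCU01581 (distance 0.058), NCU01665 (0.067) and NCU01464 (0.071), which have no symbol in the table. Of the other synthase genes, chs-1 was the nearest with a distance of 0.22, and 4.50% of the tested genes lay closer. The distance of chs-5, 0.86, was the largest within the set. These distances include the difference between the strains, so their order largely follows the changes already given and is not separate evidence.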

How the data were processed

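FPKM values, 1 per gene and culture, were made and deposited by the authors. STAR and Cuffnorm are named in the submitters' processing notes. Their versions, the genome build, the annotation and any scaling between libraries are not given in the sources used here. Libraries were directional, made from oligo(dT)-selected RNA and read in pairs of 150 bp, per the labels' protocols. Depth is therefore unknown, and no counting interval is given.

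Genes with a mean of at least 1 FPKM over the 6 cultures (7797 of 9730) were fitted as log2(FPKM + 1) with limma 3.58.1 (eBayes with a variance trend) in R 4.3.3. Ratios within a culture used an exact two-sided permutation test (scipy 1.17.1). On simulated data of 7797 genes with 200 changed by 1 log2 unit for mutant against control, 95% of the 200 were called. With a change of 0.3 log2 units, 28.5% were called. In the data 3725 genes were called, far more than the 200 changed in the simulation. The cut made by the adjustment depends on that number, so these shares do not give the sensitivity of the reported fit.

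The members, wall gene lists and tests were chosen with earlier results of these data known. Lists were matched on the primary symbol in the RefSeq table of assembly NC12, which held 9729 of the 9730 locus tags, or on locus tags for regulators. That table gives no product names, so the precursor list came to gfa1. Named were all synthase genes, all regulators and precursors reported, from each other list the 2 largest called rises and falls, and the 3 genes nearest to the most changed called synthase gene; gel-1, gel-3, gh76-7, NCU04351 and gh13-1 were named after their values or positions were seen. Of the wall lists, 1 gene is not reported here, and the counts leave it out. No sequence was used here.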

Additional observations from a re-analysis of the deposited data

How the results depend on the processing

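Over 14 alternative settings (8 with all cultures and 6 that each left out a culture), the number of synthase genes called ran from 3 to 5, with 2 or 3 called lower. With quantile normalization 1 was called higher, and leaving out a culture gave 1 to 2, since chs-7 was lost. Over all tested genes, the calls ran from 2892 of 7778 without control replicate 2 to 3814 of 9047 with no filter on low values. Quantile normalization called 3796 of 7797. The calls of chs-1 and chs-5 held in all 14 alternatives and that of chs-2 in 13. With the replicate block, chs-1, chs-2, chs-5 and chs-7 were still called (limma adjusted p = 0.0211, 0.0194, 0.0254 and 0.0341), and 3363 genes were called in all, against 3725. Same-numbered cultures deviated from their group means with correlations of -0.10, -0.17 and 0.07 across genes, so the numbers were not taken to pair the cultures. The sign of chs-3 turned without mutant replicate 3, with -0.043 to 0.0025 when each culture was left out in turn, and that of ags-2 with quantile normalization (0.10). The sign of pkc turned on the TPM scale (-0.0027) and with quantile normalization (-0.0070), and that of gs-1 without mutant replicate 1, with -0.0070 to 0.11 when each culture was left out in turn. The estimate of gel-3 turned without control replicate 3, with -0.0021 to 0.15 over the same fits. The cause of these sign changes was not tested, and each estimate was smaller than its standard error in the reported fit. Of all called genes 50.2% were higher in the mutant, 43.9% on the TPM scale and 55.6% with quantile normalization. In estimate, chs-1 and chs-2 were lower and chs-5 and chs-7 higher under these settings.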
